A study of Mus musculus with 16 samples.

Results

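Glutamate receptors are the proteins through which neurons sense the excitatory transmitter glutamate, and 10 genes that encode their subunits were followed in long-read RNA of mouse cortex and striatum. The genes were Gria1, Gria2, Gria3 and Gria4 (AMPA receptor subunits), Grin1, Grin2a and Grin2b (NMDA receptor subunits), Grm3 and Grm5 (metabotropic receptors) and Grik5 (a kainate receptor subunit). They were taken by gene name from the count tables, and they are 10 of the 23724 genes that had at least 1 read. Their reads fell on 1665 of the 698596 isoform models with a read, an isoform model being one chain of exons with a count in each sample.

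AMPA receptors are tetramers that carry most of the fast excitatory current, and each AMPA subunit exists as a flip or a flop form, made from a choice between adjacent exons of the same length that changes how quickly the channel desensitizes. NMDA receptors need the subunit encoded by Grin1 together with a partner such as the products of Grin2a or Grin2b, and they let calcium into the postsynaptic cell. Metabotropic receptors act through G proteins, and the product of Grm5 is abundant in striatal projection neurons, the main targets of cortical glutamatergic axons in the striatum and the cells most affected in Huntington's disease.

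The samples came from male R6/2 mice at 3 months of age, which carry a transgene with the first exon of human HTT and a long CAG repeat, and from non-transgenic (NT) males of the same age. Cortex and striatum were taken from the left hemisphere, giving 16 samples in 4 groups of 4, named Cortex NT, Cortex R6/2, Striatum NT and Striatum R6/2. The transgene adds a fragment of HTT to the intact mouse gene, so R6/2 is a fragment model of the disease and not a knock-in. Polyadenylated RNA was copied to full-length cDNA, amplified by PCR without molecular identifiers and read on the PacBio platform, and each value below starts from a count of reads per isoform. The labels do not say that samples of a group are separate animals. The paper took the samples from the males of its short-read cohort, whose samples it called biological replicates. That cohort gave both cortex and striatum, so samples of the 2 regions can share animals. Which samples share an animal is not stated, and the main tests between regions used no pairing. The p-values measure the spread between these samples.

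Samples held 252885 to 1496196 reads, of which 242 to 1764 per sample fell on the 10 genes in the 4 read classes used for levels: known isoforms, incomplete splice matches (ISM, reads that follow part of a known chain of exons), and unannotated isoforms with known or with new splice sites. Levels are given as counts per 1000000 reads in these 4 classes (CPM) after TMM normalization. The 4 samples Striatum NT 1, Striatum NT 2, Striatum R6/2 2 and Striatum R6/2 3 were deposited as 2 sets of counts, which were summed, while the other 12 had 1 set; 30.3% of 7694 genes differed between striatal samples of 2 sets and of 1 set. The number of sets was therefore a term in each fit that held striatal samples. Since every cortical sample had 1 set, this term was estimated within the striatum. Fitted values between regions therefore set cortex against striatum at 1 set. Summed levels of 9 markers of striatal projection neurons were 10075 to 13826 CPM in Striatum NT and 375 to 470 in Cortex NT, and 7 markers of cortical excitatory neurons were at 132 to 178 CPM in Cortex NT and 4.87 to 51.6 in Striatum NT, so both dissections carried the markers of their labels. In Striatum R6/2 the projection neuron markers were at 1888 to 3259 CPM, with 7 of 9 lower by the test. The sample Striatum NT 2 had the highest level of all 16 samples for Grik5 and for Grin1. Striatum NT 3 held 9190 CPM of 4 choroid plexus markers, against at most 1548 in any other sample. In bulk tissue, fewer cells of a type and less RNA per cell cannot be told apart.

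The exons that carry the flip and flop choice are shown first, because the clearest difference within any of these genes was in their use. Both exons are coding and 115 bases long, they lie next to each other near the 3′ end of the gene, and they differ at 36 bases in Gria1 and in Gria2 (68.7% identity) and at 32 bases in Gria3 (72.2%). In the Gria4 pair 31 bases differ (73.0%). Positions are on mm10 (GRCm38), sequences are from GENCODE M21 transcripts on the strand of the gene, and capitals mark the bases at which the flip and flop exons of 1 gene differ. The Gria2 flop exon is at chr3:80691320-80691434 and its flip exon at chr3:80690404-80690518, both on the minus strand. The Gria1 flop exon is at chr11:57309769-57309883 and its flip exon at chr11:57310608-57310722, on the plus strand. The Gria3 flop exon is at chrX:41654810-41654924 and its flip exon at chrX:41669501-41669615, also on the plus strand.
Gria2 flop: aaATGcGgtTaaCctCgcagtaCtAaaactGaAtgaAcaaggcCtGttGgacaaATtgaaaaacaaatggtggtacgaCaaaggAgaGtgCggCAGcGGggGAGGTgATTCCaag
Gria2 flip: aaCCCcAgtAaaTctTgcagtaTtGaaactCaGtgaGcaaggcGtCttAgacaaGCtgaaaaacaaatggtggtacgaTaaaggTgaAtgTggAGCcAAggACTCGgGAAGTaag
Gria1 flop: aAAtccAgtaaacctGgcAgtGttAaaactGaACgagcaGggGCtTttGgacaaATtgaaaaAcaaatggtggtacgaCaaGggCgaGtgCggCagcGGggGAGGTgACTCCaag
Gria1 flip: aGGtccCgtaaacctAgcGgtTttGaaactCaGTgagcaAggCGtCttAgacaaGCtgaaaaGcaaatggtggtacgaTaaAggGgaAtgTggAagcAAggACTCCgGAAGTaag
Gria3 flop: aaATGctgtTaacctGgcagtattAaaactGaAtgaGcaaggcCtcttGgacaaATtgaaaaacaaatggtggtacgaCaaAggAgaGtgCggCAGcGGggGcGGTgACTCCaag
Gria3 flip: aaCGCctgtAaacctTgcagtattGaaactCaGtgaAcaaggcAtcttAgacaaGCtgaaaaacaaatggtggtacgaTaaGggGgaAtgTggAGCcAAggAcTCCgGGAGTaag

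Grin1 has a different kind of choice. Its C1 cassette (chr2:25294438-25294548, minus strand) is a coding exon of 111 bases that adds to the cytoplasmic tail of the receptor a segment involved in calmodulin binding and in retention in the endoplasmic reticulum. It is shown because its highest share was in Striatum NT 2, the sample with most Grin1 reads. Capitals mark the cassette, and the 15 lower-case bases on each side belong to the neighbouring exons.
Grin1 C1 cassette: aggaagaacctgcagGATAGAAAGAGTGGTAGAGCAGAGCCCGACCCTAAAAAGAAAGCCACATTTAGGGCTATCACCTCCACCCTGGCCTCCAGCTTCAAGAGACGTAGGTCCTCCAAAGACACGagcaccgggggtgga

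Long reads showed that the genes differed in how completely they were captured. Of the 2463 Gria1 reads in the 4 classes, 1002 (40.7%) matched a full-length coding isoform, and the share was 33.0% for Gria2 (1308 of 3959), 41.1% for Gria3 (339 of 825), 44.3% for Grin1 (347 of 783) and 57.2% for Grm3 (250 of 437). It was only 12.9% for Grik5 (56 of 435) and 3.22% for Gria4 (19 of 590). No full-length coding read was found among 124 Grin2a, 743 Grin2b or 357 Grm5 reads, which allows shares of up to 2.42%, 0.404% and 0.84%. The reads of these genes were fragments: a Grin2b read had 2.36 exons on average, a Grm5 read 2.78 and a Grin2a read 3.22, against 13.4 for Gria1 and 13.7 for Grin1.

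A further class, called genomic by the transcript caller and meaning reads that overlap the gene without a spliced match, took 78.2% of all Grin2a reads, 73.1% of Grm5 reads and 56.0% of Grin2b reads, against 21.7% for Gria2 and 12.7% for Grik5. These 5610 reads were left out of the levels. For Grin2b, 438 of the 743 reads used belonged to 1 ISM model of 2 exons and 1740 bases. The plot of read classes by gene shows this contrast between genes whose reads were mostly spliced and genes whose reads were mostly genomic.

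**Figure D1:**
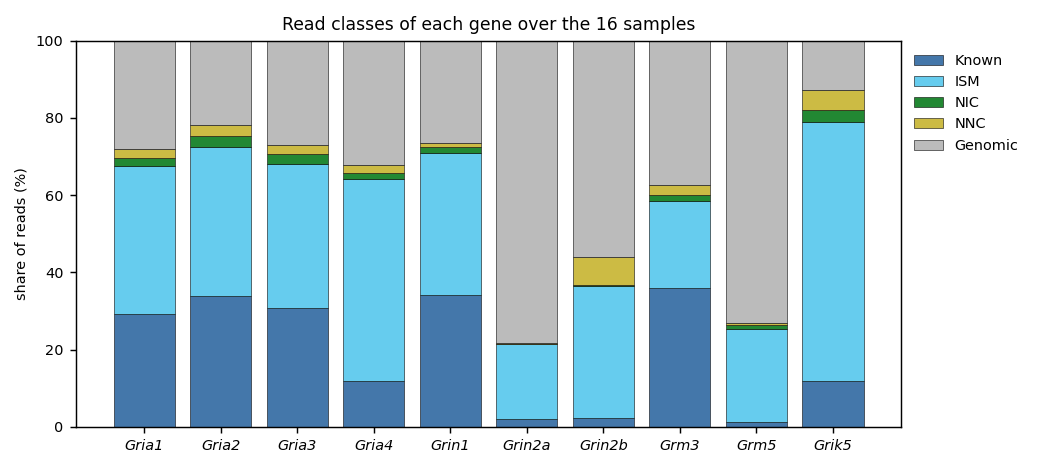
Share of the reads of each gene by read class over all 16 samples, as stacked bars that add to 100 percent (ISM, incomplete splice match; NIC and NNC, unannotated isoforms with known and with new splice sites). Grin2a, Grm5 and Grin2b stand out, with 78.2, 73.1 and 56.0 percent of reads in the genomic class.

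AMPA receptor subunits. Gria1 (ENSMUSG00000020524, chr11:57011387-57330244), Gria2 (ENSMUSG00000033981, chr3:80681450-80802835), Gria3 (ENSMUSG00000001986, chrX:41400854-41678601) and Gria4 (ENSMUSG00000025892, chr9:4417896-4796234) encode GluA1 to GluA4. Gria2 is the subunit whose RNA editing makes the channel poorly permeable to calcium. For Gria1 the group means were 291 ± 91.7 CPM in Cortex NT, 251 ± 53.3 in Cortex R6/2, 240 ± 87.4 in Striatum NT and 220 ± 58.5 in Striatum R6/2 (SD, n = 4 each), and each group overlapped the next in this order. Gria2 followed the same order, with 473 ± 117, 406 ± 17.2, 394 ± 68.0 and 343 ± 87.9 CPM, and again each group overlapped the next. Neither gene passed the test by genotype: the log2 fold change, R6/2 against NT, of Gria1 was -0.19 in cortex and -0.16 in striatum, and that of Gria2 was -0.20 and -0.23 (edgeR quasi-likelihood test, adjusted p = 0.511 to 0.748). By the same test both were lower in striatum than in cortex and did not pass. The fitted values are for striatum at 1 set and are larger in size than the group means give. Striatal samples of 1 set held 127 to 242 CPM of Gria1 and 240 to 375 of Gria2. Those of 2 sets held 251 to 340 and 385 to 453 CPM. Gria1 was at -0.59 in NT mice (adjusted p = 0.0767) and -0.54 in R6/2 mice (adjusted p = 0.116). Gria2 was at -0.51 in both (adjusted p = 0.0566 and 0.0655), and it passed in R6/2 mice without Cortex NT 3.

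Among the AMPA genes, Gria4 had the smallest adjusted p between regions, in R6/2 mice. In Cortex NT 1 to 4 its level was 72.8, 91.0, 68.2 and 71.1 CPM, and in Cortex R6/2 1 to 4 it was 62.2, 79.2, 84.5 and 82.8 CPM. In Striatum NT 1 to 4 it was 56.6, 59.0, 63.0 and 43.8 CPM, and in Striatum R6/2 1 to 4 it was 43.6, 49.5, 41.5 and 25.9 CPM. All 4 striatal samples lay below all 4 cortical samples in both genotypes. Of 7360 genes, 8.93% were separated in this direction in NT mice and 12.6% in R6/2 mice. In R6/2 mice Gria4 was lower in striatum by the test, to 0.499 of the cortical level (SE 0.23 on the log2 scale, adjusted p = 0.00265), while in NT mice the difference was -0.53 and did not pass (adjusted p = 0.0943). The direct test of region by genotype gave -0.47 for Gria4 (unadjusted p = 0.113), so a difference between the genotypes in this respect was not shown. With incomplete reads left out, the R6/2 value was -0.94 and did not pass (adjusted p = 0.157).

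Gria3 followed the same direction. It was at 37.7, 115, 146 and 169 CPM in Cortex NT 1 to 4, at 76.9, 101, 92.8 and 101 in Cortex R6/2 1 to 4, at 107, 90.0, 66.1 and 63.3 in Striatum NT 1 to 4 and at 46.5, 65.0, 58.7 and 65.8 in Striatum R6/2 1 to 4. Striatum R6/2 lay wholly below Cortex R6/2, whereas the NT groups overlapped because Cortex NT 1 was the lowest of its group. Gria3 was lower in R6/2 striatum than in R6/2 cortex at a log2 fold change of -0.87 (SE 0.32, adjusted p = 0.0418), and in NT mice the value was -0.71 (adjusted p = 0.0943), or -0.79 without Cortex NT 1, which passed (adjusted p = 0.01). The R6/2 call on Gria3 was lost on leaving out Striatum NT 1, 3 or 4, Striatum R6/2 1, 2 or 3, Cortex NT 4, or Cortex R6/2 2, 3 or 4, with an adjusted p of 0.0578 to 0.137 and a log2 fold change that stayed between -0.66 and -0.88. It was also lost in 8 of the 9 other alternatives: with upper-quartile normalization, without the low-count filter, with genomic reads added, with incomplete reads left out, without a term for the number of sets, with the first set only, by DESeq2 and among samples of 1 set. In these 8 the log2 fold change was -0.54 to -0.82 and the adjusted p 0.0512 to 0.206.

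**Figure D2:**
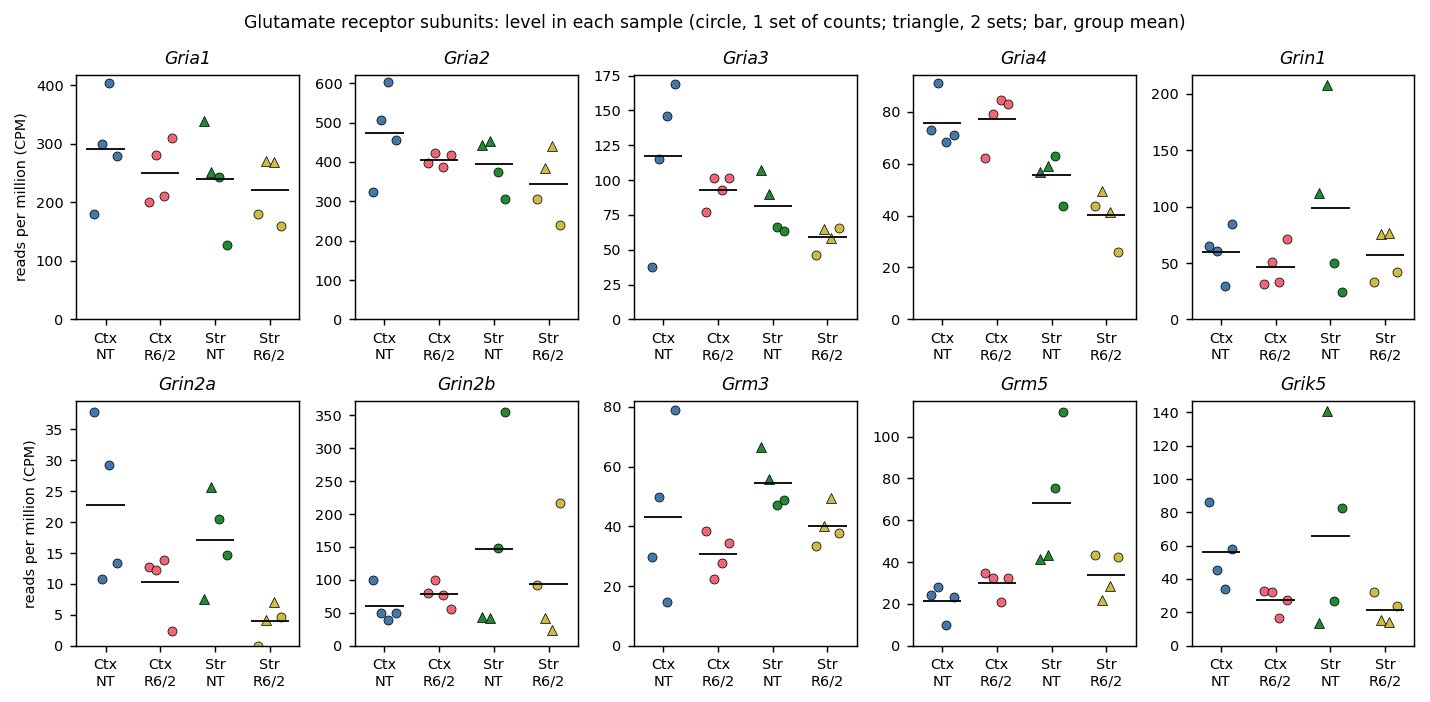
Level of each of the 10 genes in CPM (vertical axis from 0, a scale for each gene), with 1 point per sample (circle, 1 set of counts; triangle, 2 sets) and a bar at the mean of each of the 4 groups (Ctx, cortex; Str, striatum). Gria4 lay lower in all striatal than in all cortical samples of the same genotype, and Grin2b and Grm5 reached their highest levels, 356 and 112 CPM, in Striatum NT 4.

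In these samples the flip share of Gria2 separated by region, although Gria2 did not pass the isoform test over all genes given below. A read was assigned where its known isoform holds one of the exons shown above. For Gria2, 452 of 1308 assignable reads (34.6%) were flip. In Cortex NT 1 to 4 the flip share was 40.0%, 54.3%, 45.0% and 63.5%, and in Cortex R6/2 1 to 4 it was 46.5%, 38.2%, 47.8% and 52.7%. In Striatum NT 1 to 4 it was 24.5%, 21.8%, 16.3% and 14.3%, and in Striatum R6/2 1 to 4 it was 28.4%, 35.3%, 34.3% and 21.9%. Every cortical sample used flip more than every striatal sample. The share rested on 7 to 201 reads per sample, with 95% Wilson intervals of 2.57 to 51.3% in the thinnest, Striatum NT 4, and of 28.1 to 41.1% in the deepest, Striatum R6/2 3, and the intervals cover counting error only.

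Averaged over samples, the Gria2 flip share was 50.7 ± 10.4% in Cortex NT and 19.2 ± 4.77% in Striatum NT (SD, n = 4 each), a difference of -31.5 percentage points (two-sided exact permutation test, p = 0.0286, the smallest that 4 against 4 can give). In R6/2 mice it was 46.3 ± 6.04% in cortex and 30.0 ± 6.19% in striatum, a difference of -16.3 points (exact permutation p = 0.0286, a comparison added after seeing the data). Within the striatum, R6/2 exceeded NT by 10.7 points and the groups overlapped (exact permutation p = 0.0571), with differences of 9.85 points among samples of 1 set and 11.6 among samples of 2 sets. In the cortex the genotypes differed by -4.41 points (exact permutation p = 0.457). Permuting genotype within each region gave p = 0.0551 for the difference of 15.1 points between the 2 genotype effects (exact, 4900 arrangements), so this difference did not pass.

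**Figure D3:**
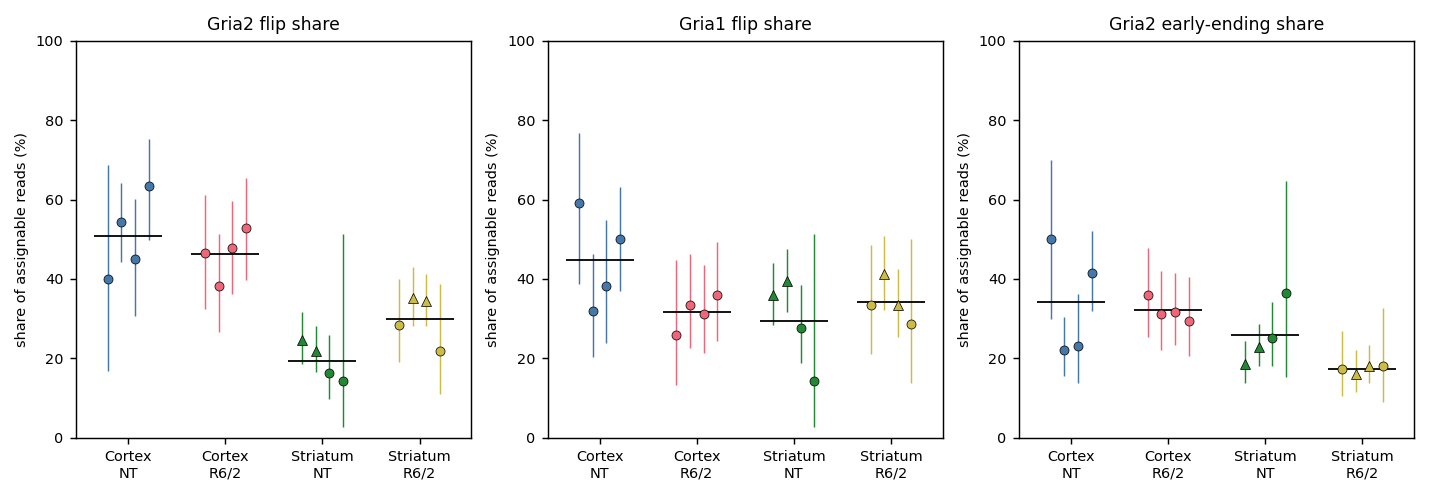
Percent of assignable reads in the flip form of Gria2 and Gria1 and in early-ending isoforms of Gria2, with 1 point per sample (circle, 1 set of counts; triangle, 2 sets), its 95% Wilson interval as a line and a bar at the group mean. For Gria2 flip, the cortical samples sit between 38.2 and 63.5 percent and the striatal samples between 14.3 and 35.3 percent.

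The same choice was read in the other AMPA genes, without a test against Gria2. For Gria1, 361 of 1002 reads (36.0%) were flip, with group means of 44.8 ± 12.1% in Cortex NT, 31.6 ± 4.22% in Cortex R6/2, 29.3 ± 11.2% in Striatum NT and 34.1 ± 5.22% in Striatum R6/2 (SD, n = 4 each). These groups overlapped, and the region difference in NT mice was -15.5 points, in the same direction as for Gria2 (exact permutation p = 0.143). The difference between the 2 genotype effects was 18.0 points for Gria1 (exact permutation p = 0.0686). Gria3 was nearly all flip, in 336 of 339 reads (99.1%) and in at least 93.3% of the reads of every sample. Gria4 had only 19 assignable reads, 7 of them flip, too few to compare groups. Its known isoform with most reads was a short coding form of 11 exons that ends before the flip and flop exons, with 83 of 102 reads (81.4%). Its share ran from 50.0 to 100% in the samples with at least 5 such reads.

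Gria2 also has annotated isoforms that retain an intron and end before the last exon, which held 407 of 1715 known-isoform reads (23.7%). Their share was 34.2 ± 13.9% in Cortex NT, 32.0 ± 2.68% in Cortex R6/2, 25.8 ± 7.60% in Striatum NT and 17.3 ± 0.861% in Striatum R6/2 (SD, n = 4 each). All 4 Striatum R6/2 samples (16.1 to 18.0%) lay below all 4 Striatum NT samples (18.5 to 36.4%), a difference of -8.43 points (exact permutation p = 0.0286, or 0.0556 within numbers of sets, the smallest that design allows). The difference was -13.2 points among samples of 1 set and -3.68 among samples of 2 sets. Without Striatum NT 4, whose share rested on 11 reads, it was -4.90 points (exact permutation p = 0.0286), and with the first set only, or without any 1 of the Striatum R6/2 samples, the exact permutation p was 0.0571. Samples also differed in how complete their Gria2 reads were. The ISM part was 31.8 to 77.8% over the sets of Striatum NT and 32.4 to 54.0% over those of Striatum R6/2. In each region the sample with the largest ISM part had the highest early-ending share: Striatum NT 4 (77.8% ISM) and Cortex NT 1 (80.0% ISM, share 50.0%). Striatum R6/2 1, at 54.0% ISM, had a share of 17.3%. The part of read completeness in this result was not tested. The early-ending share was examined after seeing the data. In all, 24 tests of form shares were run, with no adjustment among them. Of the 12 that were planned 1 had p under 0.05, the Gria2 flip share between regions in NT mice, and 12 were added after seeing the data, 3 of them with p under 0.05.

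NMDA receptor subunits. Grin2b (ENSMUSG00000030209, chr6:135713233-136173511) encodes the GluN2B subunit. It was at 99.8, 49.9, 39.0 and 50.0 CPM in Cortex NT 1 to 4 and at 80.5, 99.5, 77.5 and 55.2 in Cortex R6/2 1 to 4. In Striatum NT 1 to 4 it was at 44.0, 41.9, 148 and 356 CPM, and in Striatum R6/2 1 to 4 at 91.6, 42.3, 24.3 and 216 CPM. Within the striatum the samples divided by the number of sets and not by genotype, with 91.6 to 356 CPM in samples of 1 set and 24.3 to 44.0 CPM in samples of 2 sets (log2 -2.48, SE 0.32, adjusted p = 8.82e-05). Within the 4 samples that had both, the second set held 2.56 to 3.70 times as many Grin2b reads per 1000000 reads of all classes (RPM) as the first.

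With the number of sets in the edgeR fit, Grin2b was higher in striatum at 1 set than in cortex. The log2 fold change was 1.89 in NT mice (SE 0.35, adjusted p = 0.000249) and 0.99 in R6/2 mice (SE 0.33, adjusted p = 0.0283), although the groups overlapped. Striatal samples of 2 sets lay low. In Striatum R6/2 they held 42.3 and 24.3 CPM, below every Cortex R6/2 sample (55.2 to 99.5). In Striatum NT they held 44.0 and 41.9 CPM, below the Cortex NT mean of 59.6. The term for the number of sets came from the striatum alone, since every cortical sample had 1 set. Without that term the values were 1.13 (adjusted p = 0.279) and 0.18 (adjusted p = 0.901), and among samples of 1 set only they were 1.95 (adjusted p = 0.000303) and 0.93 (adjusted p = 0.0599). With incomplete reads left out they were 0.56 and 0.22 and neither passed (adjusted p = 0.389 and 0.722). With genomic reads added the NT value passed (adjusted p = 0.0012) and the R6/2 value, 0.39, did not (adjusted p = 0.259). The R6/2 call was also lost without Striatum R6/2 4 (0.60, adjusted p = 0.292), Cortex R6/2 3 (0.98, adjusted p = 0.0588) or Cortex R6/2 4 (0.87, adjusted p = 0.0782). By genotype Grin2b did not pass, at 0.39 in cortex (adjusted p = 0.493) and -0.53 in striatum (adjusted p = 0.435).

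Grin1 (ENSMUSG00000026959, chr2:25291181-25319187) encodes GluN1, the obligatory subunit. In Striatum NT 1 to 4 it was at 112, 208, 50.4 and 24.4 CPM, and in Striatum R6/2 1 to 4 at 33.4, 75.3, 76.9 and 42.3 CPM. Cortex NT samples held 29.2 to 84.6 CPM and Cortex R6/2 samples 31.1 to 71.3. The striatal genotype groups overlapped, and the highest value, 268 reads in Striatum NT 2, was seen in both of its sets (155 and 205 RPM). The log2 fold change by genotype was -0.81 in striatum (SE 0.27, adjusted p = 0.127), or -0.41 without Striatum NT 2 (adjusted p = 0.455) and -0.79 without the low-count filter, which passed (adjusted p = 0.0247), and -0.49 in cortex (adjusted p = 0.417). Grin1 also moved with the number of sets, at 75.3 to 208 CPM in striatal samples of 2 sets and 24.4 to 50.4 in those of 1 set (log2 1.33, SE 0.28, adjusted p = 0.00346).

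The spliced forms of Grin1 were read from 347 full-length coding reads. The N1 cassette, an exon of the extracellular domain, was present in 22 of them (6.34%), the C1 cassette in 164 (47.3%), and the longer last exon, called C2, in 159 (45.8%). Striatum NT 2 carried 125 of the 347 reads and had C1 in 72.0% of them (95% Wilson interval 63.6 to 79.1%) and C2 in 75.2% (67.0 to 81.9%). In the other samples with at least 5 assignable reads, C1 ran from 11.8 to 60.0% and C2 from 8.82 to 60.0%. The C1 intervals of Cortex NT 2, Cortex R6/2 1 and Striatum R6/2 4, on 10, 5 and 7 reads, overlapped that of Striatum NT 2. Group means did not separate, since Striatum NT and Striatum R6/2 differed in C1 by an amount that exact permutation placed at p = 0.6 and in C2 at p = 0.457.

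Grin2a (ENSMUSG00000059003, chr16:9567898-9995560) encodes GluN2A and fell below the low-count filter in the main fit of all comparisons, with 0 to 33 reads per sample. Its means were 22.8 ± 12.8 CPM in Cortex NT, 10.3 ± 5.37 in Cortex R6/2, 17.1 ± 7.77 in Striatum NT and 3.98 ± 2.95 in Striatum R6/2 (SD, n = 4 each). All 4 Striatum R6/2 samples (0 to 7.09 CPM) lay below all 4 Striatum NT samples (7.55 to 25.6 CPM), on 13 and 55 reads. Of the 7694 genes that passed the filter there, 4.34% were separated in this direction. Without the filter on low counts 637 of 21677 genes were called in the striatum, and 4 of them were members, Grin2a, Grin1, Grm5 and Grik5. With genomic reads added 494 of 8699 genes were called there, and 2 of them were members, Grin2a and Grm5.

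Metabotropic receptors. Grm5 (ENSMUSG00000049583, chr7:87584168-88134907) encodes mGluR5, which couples to phospholipase C. In Striatum NT 1 to 4 it was at 41.5, 43.5, 75.6 and 112 CPM, and in Striatum R6/2 1 to 4 at 43.6, 21.7, 28.3 and 42.3 CPM. In Cortex NT 1 to 4 it was at 24.3, 28.2, 9.74 and 23.1 CPM, and in Cortex R6/2 1 to 4 at 34.8, 32.5, 20.8 and 32.2 CPM. Striatum NT lay wholly above Cortex NT, and the striatal genotype groups overlapped at 41.5 to 43.6 CPM. The NT groups of the 2 regions did not overlap, in either direction, for 16.1% of 7360 genes.

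Grm5 fell in the striatum of R6/2 mice, to 0.533 of the NT level (log2 -0.91, SE 0.21, adjusted p = 0.027), and it was the only member called of the 9 tested in that comparison, in which 4.32% of 7694 genes were called. All 9 members had a fold change below 0 there, from -0.16 to -1.73 with a median of -0.51 against -0.00 for all genes. The list of interneuron markers held Gad1, Gad2, Pvalb, Sst, Vip and Npy. Striatal projection neurons are GABAergic and also express Gad1 and Gad2, so in striatum the sum of this list does not measure interneurons alone. The sum was lower in R6/2 as well, at 653 to 752 CPM in Striatum R6/2 against 1012 to 1237 in Striatum NT, with 0 of 5 tested called. In cortex it was at 353 to 398 in Cortex R6/2 against 633 to 823 in Cortex NT, with 3 of 6 called. The groups did not overlap in either region. Summed markers of all neurons overlapped in the striatum, at 2519 to 3332 CPM in R6/2 and 3021 to 4985 in NT. The part of these cell types in the members' values was not tested. The Grm5 call was close to the threshold. Leaving out Striatum NT 2 gave -0.89 (adjusted p = 0.052), leaving out Striatum R6/2 1, 2 or 4 gave -0.88, -0.85 and -0.88 (adjusted p = 0.0938, 0.109 and 0.0853), and without a term for the number of sets it was -0.96 (adjusted p = 0.499). The call was also lost by DESeq2 (-0.87, adjusted p = 0.0514), with the first set only (-0.92, adjusted p = 0.0617), under a replicate block (-0.92, adjusted p = 0.0814) and within samples of 1 set (-1.03, adjusted p = 0.252) or of 2 sets (-0.79, adjusted p = 0.282). Grm5 moved with the sets as well, at 42.3 to 112 CPM in striatal samples of 1 set and 21.7 to 43.5 in those of 2 sets (log2 -1.10, SE 0.21, adjusted p = 0.00172). Within each number of sets both NT samples exceeded both R6/2 samples.

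Reads of the genomic class, which did not enter these levels, gave the same order for Grm5: 85.0 to 185 RPM in Striatum NT and 58.0 to 80.9 in Striatum R6/2, without overlap. In cortex the genomic reads overlapped, at 57.3 to 79.1 and 53.4 to 93.3 RPM. Summed markers of striatal projection neurons, which express Grm5, were lower in Striatum R6/2 as given above, and their part in the Grm5 result was not tested.

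Between regions Grm5 was the member with the smallest adjusted p. In NT mice it was 3.67-fold higher in striatum (log2 1.87, SE 0.29, adjusted p = 2.88e-05), and the groups did not overlap. With incomplete reads left out, Grm5 had too few reads to be tested. Only Grm5 and Grin2b were called of 9 members tested in this comparison, in which 33.6% of 7360 genes were called, so the share of members called was below that of all genes. In R6/2 mice the region difference of Grm5 was 0.62 and did not pass (adjusted p = 0.0927), although it passed with genomic reads added, with the first set only and without Cortex NT 1 or Cortex NT 4, at 0.54 to 0.83 (adjusted p = 0.0269 to 0.046). There 3 of 9 members were called (Gria3 and Gria4 lower, Grin2b higher in striatum), against 27.4% of all genes, a share near the background. The direct test of region by genotype gave -1.25 for Grm5 (SE 0.37, unadjusted p = 0.00237), which over all genes had an adjusted p = 0.634. By edgeR no member was called in that test and 1 of 9 had an unadjusted p under 0.05, with 0.0408% of all genes called, and DESeq2 called none of the members either.

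**Figure D4:**
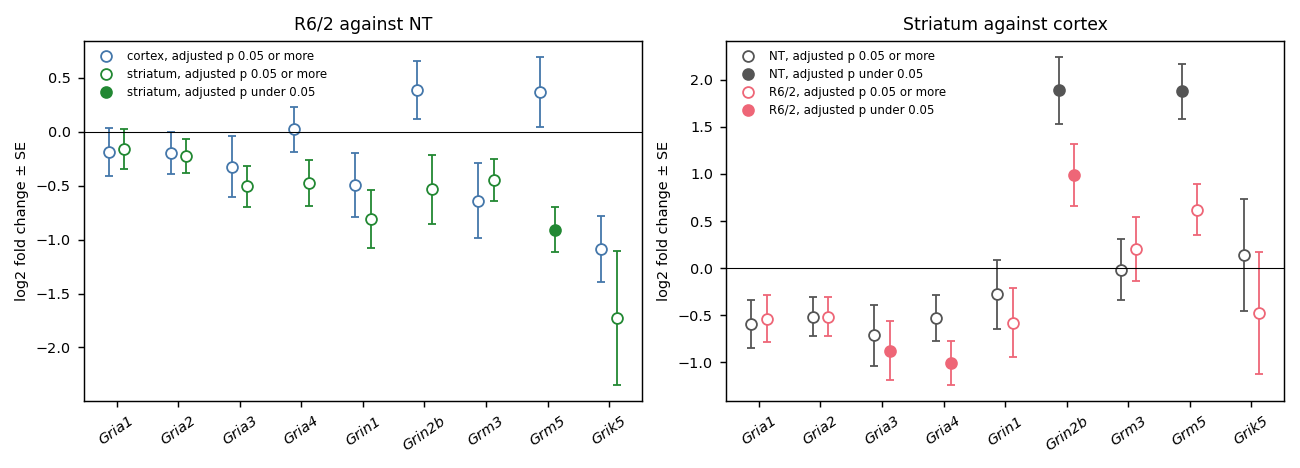
Log2 fold change of the 9 members tested, with error bars of 1 standard error (SE), for R6/2 against NT in cortex and striatum and for striatum against cortex in NT and R6/2 mice; filled points passed an adjusted p of 0.05. All 9 striatal genotype values lie below 0, and Grm5 (-0.91) is the filled one.

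Grm3 (ENSMUSG00000003974, chr5:9485541-9725170) encodes mGluR3, a receptor of neurons and astrocytes that lowers cyclic AMP. Its means were 54.6 ± 8.88 CPM in Striatum NT, 43.2 ± 27.8 in Cortex NT, 40.2 ± 6.86 in Striatum R6/2 and 30.7 ± 7.15 in Cortex R6/2 (SD, n = 4 each), and each group overlapped the next in this order. The log2 fold change by genotype was -0.64 in cortex (SE 0.35, adjusted p = 0.359) and -0.45 in striatum (SE 0.19, adjusted p = 0.242). Between regions it was -0.02 in NT and 0.20 in R6/2 mice. Summed astrocyte markers were lower in R6/2 as well, at 1929 to 3815 CPM in Striatum NT and 1281 to 1819 in Striatum R6/2, with 1 of 7 markers called, and at 2290 to 3549 in Cortex NT and 1334 to 1778 in Cortex R6/2, with 1 of 7 called, and their part in the Grm3 values was not tested.

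Kainate receptor subunit. Grik5 (ENSMUSG00000003378, chr7:25009849-25072346) encodes GluK5, which joins other kainate subunits and raises their affinity for the ligand. In Cortex NT 1 to 4 it was at 86.3, 45.5, 34.1 and 57.7 CPM and in Cortex R6/2 1 to 4 at 32.9, 32.5, 16.6 and 27.6 CPM. Every Cortex R6/2 sample lay below every Cortex NT sample, as was so for 6.51% of the 6128 genes tested. The log2 fold change was -1.09 (SE 0.31), with an unadjusted p = 0.00207 and an adjusted p = 0.0579, so Grik5 did not pass over all genes. It passed without Cortex NT 3 (-1.20, adjusted p = 0.033) and without the low-count filter (-1.03, adjusted p = 0.0322), and on leaving out any other sample its adjusted p was at least 0.0676. By edgeR no member was called by genotype in the cortex, where 3.23% of 6128 genes were called, and 1 of the 9 had an unadjusted p under 0.05. DESeq2 also called none.

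In the striatum 1 sample decided the value for Grik5. Striatum NT 1 to 4 held 13.8, 140, 26.8 and 82.8 CPM and Striatum R6/2 1 to 4 held 32.0, 15.5, 14.2 and 23.5 CPM. Striatum NT 2 gave 181 reads, against at most 32 in any other of the 16 samples, and both of its sets gave a similar level (112 and 131 RPM). It also held 38 of the 56 full-length coding reads. The log2 fold change of -1.73 (SE 0.62, adjusted p = 0.156) became -0.35 without it (adjusted p = 0.754). It passed without Striatum NT 1 (-2.12, adjusted p = 0.0189), with all 16 samples in 1 fit (-1.71, adjusted p = 0.0476) and without the low-count filter (-1.69, adjusted p = 1.64e-07). The model with most reads was a single-exon ISM of 946 bases with 131 reads.

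**Figure D5:**
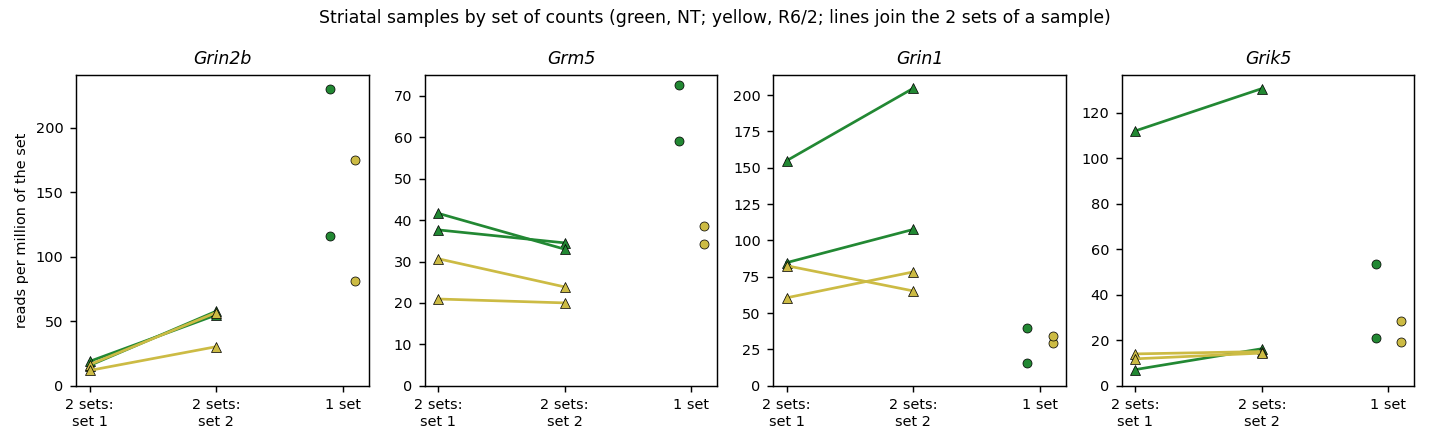
RPM in each set of counts for Grin2b, Grm5, Grin1 and Grik5 in the 8 striatal samples (green, NT; yellow, R6/2), with the 2 sets of a sample joined by a line and samples of 1 set as circles at the right. The Grik5 and Grin1 values of Striatum NT 2 are the highest in both of its sets (112 and 131 for Grik5, 155 and 205 for Grin1).

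Isoform use within each gene was also tested across all genes, by comparing the fold change of each known or unannotated isoform with that of its gene (edgeR, Simes p per gene). In cortex 4 members could be tested, in striatum 4 and between regions in NT mice 5, and none was called, against 0.359%, 0.428% and 0.389% of all genes. Between regions 1 member had an unadjusted p under 0.05. In edgeR this was Gria2 (unadjusted p = 0.00854, adjusted p = 0.415), and its isoform with the smallest p was the flip form ENSMUST00000107745 (unadjusted p = 0.000854, adjusted p = 0.198), so the region difference in flip use did not pass over all genes. The smallest unadjusted p among members was 0.0666 in cortex and 0.149 in striatum. In simulated data this test missed many changed isoforms, so the absence of calls says little about isoform use in these genes.

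Other genes of the glutamatergic synapse were read from gene lists, chosen like the members with earlier results of these data known. Among receptor auxiliary subunits and assembly factors, 1 of 9 tested fell in R6/2 cortex, Neto2, a kainate receptor auxiliary subunit (log2 -1.65, adjusted p = 0.00925). In R6/2 striatum 1 of 10 fell, Gsg1l, an AMPA receptor auxiliary subunit (log2 -1.92, adjusted p = 0.00201). The median of the list was -0.41 in cortex and -0.55 in striatum, against 0.02 and -0.00 for all genes. Of postsynaptic scaffold genes 3 of 10 fell in R6/2 cortex and 3 of 12 in R6/2 striatum, where 2.77% and 3.82% of all genes fell. Homer1, whose long product links metabotropic receptors to internal calcium stores, fell in both (log2 -1.33, adjusted p = 0.0143, and -1.83, adjusted p = 0.0179), as did Grasp, a scaffold protein that binds metabotropic receptors (-1.18, adjusted p = 0.00301, and -1.21, adjusted p = 0.00328). Homer2 fell in cortex (-1.14, adjusted p = 0.0154) and Dlgap3, a partner of PSD-95 abundant in striatum, fell in striatum (-1.20, adjusted p = 0.0292). Of genes of glutamate transport and metabolism, 1 of 8 fell in R6/2 cortex, Glul, the glutamine synthetase of astrocytes (-0.93, adjusted p = 0.0233), and 0 of 6 passed in striatum.

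Between regions in NT mice 15.8% of all genes were higher and 17.8% lower in striatum. In the auxiliary list 2 of 11 were higher and 1 lower, near or below that background, the lower one being Cnih3, an AMPA receptor chaperone (log2 -2.47, adjusted p = 6.05e-07). In the scaffold list 1 of 11 was higher, Dlgap3 (2.07, adjusted p = 0.000177), and 6 were lower, led by Homer2 (-3.61, adjusted p = 1.65e-06), Dlgap1 (-2.22, adjusted p = 4.21e-06) and Nsf (-1.49, adjusted p = 0.000208). In the transport list 5 of 8 were lower and none higher, including Slc17a6, a vesicular glutamate transporter (-3.74, adjusted p = 0.000166). In R6/2 mice 13% of all genes were higher and 14.5% lower in striatum. There the counts were 1 higher and 1 lower of 11 auxiliary genes, 1 higher and 6 lower of 11 scaffold genes and 4 lower of 8 transport genes. Of the other 10 ionotropic and 6 metabotropic receptor genes at most 1 each had enough reads to be tested in any comparison, and none was called. The 3 RNA editing enzymes had 1 tested member, which was not called in any comparison.

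The gene whose level ran most closely with each member over the 16 samples was found by Pearson's r of log2 CPM among 4749 genes, as a description without a test, since samples share group, region and number of sets. The closest genes were Ralb for Gria1 (r = 0.93), Acat2 for Gria2 (0.93), Hmgcs1 for Gria3 (0.96), Hecw1 for Gria4 (0.91), Fcho1 for Grin1 (0.89), Pkig for Grin2a (0.83), Fkbp2 for Grin2b (0.95), Gas2l1 for Grm5 (0.92), Cacng3 for Grm3 (0.84) and Cnih2 for Grik5 (0.92). Cnih2, an AMPA receptor auxiliary subunit, and Cacng3, another, are the 2 of these 10 genes that belong to the list of auxiliary subunits.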

How the data were processed

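Long-read libraries (PacBio Iso-Seq) of 16 samples were analysed. The authors generated consensus reads, removed adapters, mapped the reads to mm10 with minimap2 2.17-r941, corrected them with TranscriptClean and counted reads per isoform with TALON on an Ensembl annotation. The deposited counts are unfiltered and not normalized. PCR without molecular identifiers preceded sequencing, so counts are not independent molecules.

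Counts of samples deposited as 2 sets were summed, and known, ISM and unannotated spliced reads were added up per gene. Gene counts were fitted over all genes with edgeR 4.0.16 (R 4.3.3; TMM, filterByExpr, quasi-likelihood test) with Benjamini-Hochberg adjustment at 0.05, the 8 samples of a region for genotype and all 16 for region, with the number of sets as a term where striatal samples entered. Isoform use was tested with edgeR's diffSpliceDGE on isoforms with at least 10 reads. Form shares used known isoforms matched to GENCODE M21 exons, samples with at least 5 assignable reads and two-sided exact permutation tests over samples. Gene symbols are those of the count tables, and promoters and proteins were not used here.

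Alternatives were another normalization, no low-count filter, other read classes, no term for sets, the first set only, a replicate block, DESeq2 1.42.0, and each sample left out. Fits were tested on simulated data, and the simulation of isoform use was aimed at isoforms with more reads after its first versions recovered few changes. Reads per sample ranged from 252885 to 1496196. The members and lists were chosen with earlier results of these data known. All 10 members are named. Of the lists, at most 6 genes per comparison with adjusted p under 0.05 are named, smallest first. For each member the most alike gene has the highest Pearson correlation of log2 CPM (prior count 2) among genes with a mean of at least 20 reads per sample.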

Additional observations from a re-analysis of the deposited data

Results flagged for a closer look

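Grin2a was at 2.30 CPM in Cortex R6/2 4, far below the other samples of its group (12.2 to 13.8 CPM). The gap to the nearest of them was 0.855 of the group's range, above Dixon's critical value for 4 samples. In all, 52 groups were examined, of which chance would mark about 1 in 20, and the value rests on 1 read.

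Gria2 reads of the genomic class, which were left out of the levels and entered the fits only in the alternative with genomic reads added, were at a mean of 134.8 reads per 1000000 reads of all classes in Cortex R6/2 (110 to 161), all above the mean of 100.3 in Cortex NT (97.4 to 105). In the striatum the groups overlapped, at 33.4 to 196 in NT and 28.5 to 220 in R6/2.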

How the results depend on the processing

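Of 1353 alternative values 1187 kept their direction and their side of the threshold, or stayed within 1.5 times for a count of calls. Of the 967 alternative fold changes of members 855 did so, 38 lost a call, 13 gained one and 61 changed sign. The cause of the changes was not tested. Grin2a had too few reads to be tested in the main fits, and form shares rested on as few as 5 reads in a sample.

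The striatal count of 1 member called by genotype became 4 without a low-count filter, 2 with genomic reads added or with all 16 samples in 1 fit, and 0 with ISM reads left out, under a replicate block, without the term for sets, with the first set only, by DESeq2, and within samples of 1 set or of 2 sets (0 to 2 with 1 sample left out). Without the term for sets 39 genes were called in the striatum in place of 332. The cortical count of 0 became 1 without the low-count filter (0 to 1 with 1 sample left out). The regional count in NT mice, 2, became 0 with ISM reads left out and 1 without the term for sets. In R6/2 mice the count of 3 became 0 with ISM reads left out, 1 without the term for sets, 1 in samples of 1 set only, and 1 to 4 with 1 sample left out.

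Same-numbered samples were not treated as pairs, since which samples share an animal is not stated and their correlations were not all over 0.1. Between genotypes these ran from -0.57 to 0.62 in striatum and from -0.074 to 0.17 in cortex, and between regions from -0.23 to 0.23 in NT and from -0.041 to 0.40 in R6/2 mice, where 3 of 4 samples correlated best with their own number, a hint from the data and not from the design. Under the replicate block Grm5 in striatum was -0.92 (adjusted p = 0.0814), the striatal calls over all genes fell from 332 to 182, and Gria1 between regions in NT mice was called (adjusted p = 0.0405); no other member's call changed.

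The following fold changes turned sign. With ISM reads left out Gria4 by genotype in cortex was -0.27, Grin2b by genotype in striatum 0.0080, Grin1 and Grm3 between regions in NT mice 0.27 and 0.032, and the region-by-genotype values of Gria1, Gria2, Gria3 and Gria4 were -0.36, 0.18, 0.079 and 0.15. With genomic reads added Grin1 and Grm3 between regions in NT mice were 0.13 and 0.55, and Gria1 and Grm3 by region and genotype -0.12 and -0.18. Without the term for sets Grin1 and Grm3 between regions in NT mice were 0.77 and 0.25, Grin1 in R6/2 mice 0.35 and Gria2 by region and genotype 0.016. Grm3 between regions in NT mice was 0.022 with upper-quartile normalization, 0.12 without the filter, 0.13 with the first set only and 0.12 by DESeq2. Gria2 by region and genotype was 0.027 with upper-quartile normalization and 0.046 with the first set only. In samples of 1 set only Grik5 between regions was -0.37 in NT and 0.10 in R6/2 mice, and Gria3, Grin1 and Grik5 by region and genotype were 0.091, 0.31 and 0.47.

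With 1 sample left out, the fold change ranged by genotype from -0.026 to 0.13 for Gria4 in cortex and from -0.28 to 0.046 for Gria1 in striatum. Between regions it ranged from -0.48 to 0.15 for Grin1, from -0.20 to 0.67 for Grm3 and from -0.52 to 0.98 for Grik5 in NT mice, and from -1.06 to 0.22 for Grik5 in R6/2 mice. By region and genotype it ranged from -0.12 to 0.23 for Gria1, -0.14 to 0.13 for Gria2, -0.46 to 0.12 for Gria3, -0.52 to 0.094 for Grin1, -0.26 to 0.39 for Grm3 and -1.06 to 0.74 for Grik5.

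Of the 24 form tests, 4 had p under 0.05, or 2 to 5 with 1 sample left out. The Gria2 flip difference by genotype in striatum then ranged from 8.97 to 13.4 points, and that between regions in R6/2 mice from -19.0 to -13.6. The Gria1 flip difference by genotype in striatum was -3.90 with the first set only and -0.42 within samples of 2 sets (-0.22 to 8.16 with 1 sample left out), and that between regions in R6/2 mice -2.22 with the first set only. The Grin1 C1 difference between regions in R6/2 mice was -4.55 with the first set only (-4.95 to 9.67 with 1 sample left out) and that by genotype in striatum ranged from -18.3 to 5.18. The N1 differences ranged from -5.18 to 0.63 and from -5.96 to 0.81, the C2 difference in striatum from -24.0 to 1.92 and the early-ending Gria2 difference in cortex from -6.17 to 3.15.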
